A study of Homo sapiens with 60 samples.

Results

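The liver X receptor (LXR) pathway was described through 9 genes in HT29, a long-established cell line from a human colorectal adenocarcinoma, exposed for 24 h to ethanol extracts of medicinal plants. The 9 genes were selected by symbol from the 60675 gene entries of the expected-count table. They are the LXR targets ABCG1, ABCA1 and MYLIP, the lipid genes SREBF1, LPCAT3, SCD and FASN, and the receptor genes NR1H3 (LXRα) and NR1H2 (LXRβ). ABCG1, ABCA1 and MYLIP were chosen from values measured in these libraries, in which they stood out at the high dose of Rehmanniae Radix Preparata, so their levels and changes are a description with no test. All 9 genes passed the filter on low counts in each comparison, and the 6 others were tested in fits across all genes that passed it. Those 6 were also chosen with earlier results of these data known.

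The 60 libraries formed 25 groups. The vehicle control had 3 libraries. Extracts of Rehmanniae Radix Preparata, Cnidii Rhizoma, Paeoniae Radix, Cinnamomi Cortex and Astragali Radix were given at a low (20 µg/mL), a medium (100 µg/mL) and a high (500 µg/mL) dose, with 3 libraries at each. Angelicae Gigantis Radix had 2 libraries at each of 12.8, 64 and 320 µg/mL. The herbal formulas Sagunja-tang and Samul-tang had 1 library at each of 20, 100 and 500 µg/mL, which gives no replicate check. The vehicle was DMSO, given as 0.1% in the sample labels and as 2% in the series text. In the labels its sample codes form a set of their own, apart from those of the extracts and formulas. A difference between a treatment and the vehicle therefore cannot be told apart from one between code sets. The codes of the treatments form sets as well. Paeoniae Radix shares one with Angelicae Gigantis Radix, Cnidii Rhizoma with Rehmanniae Radix Preparata, and Astragali Radix with Cinnamomi Cortex, and the formulas share another. Differences in level between treatments of different sets carry the same limit. Separate cultures are not named in any label, so each p-value sets a difference against the spread of the libraries alone, and that spread may be technical. All libraries were bulk RNA from 1 cell line, so fewer cells of a kind and less RNA per cell cannot be told apart.

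LXRα and LXRβ are nuclear receptors that bind DNA as partners of the retinoid X receptors and are switched on by oxysterols, oxidised forms of cholesterol. In many cell types their targets move cholesterol out of the cell through the transporters ABCA1 and ABCG1, limit its uptake through MYLIP, and raise fatty acid and phospholipid synthesis through SREBF1 and LPCAT3. Sterol uptake and synthesis are driven by another factor, SREBP-2, which is held back when sterols are plentiful. In the intestine the LXR pathway is known for its part in cholesterol absorption and export.

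An LXR response element is classically a direct repeat of AGGTCA with 4 bases between the copies. RefSeq promoter windows (GRCh38.p14, from upstream of the start to just past it) were found for 7 of the 9 genes and searched on both strands, with up to 2 mismatches allowed in the 12 bases of the repeat. ABCA1 alone among those 7 had a match, and its window is shown because its level was the highest of all groups under one extract and the lowest under another. It lies on the minus strand of chr9:104928106-104928405, and the capitals mark the 2 copies as they read on the opposite strand from the repeat.

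ABCA1: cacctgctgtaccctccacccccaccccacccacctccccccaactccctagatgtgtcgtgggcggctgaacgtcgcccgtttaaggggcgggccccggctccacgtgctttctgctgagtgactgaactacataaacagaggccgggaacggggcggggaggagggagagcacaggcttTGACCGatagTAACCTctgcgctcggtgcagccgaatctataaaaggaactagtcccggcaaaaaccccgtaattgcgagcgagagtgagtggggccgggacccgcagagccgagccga

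The match covers bases -69 to -54 relative to the start and has 2 mismatches. Of 35116 promoter windows of this length, 822 (2.34%) held a match with up to 2 mismatches, 0.205% one with up to 1, and 0.0199% a perfect one. A match is a run of letters, and binding was not measured. The windows of MYLIP, SREBF1, LPCAT3, SCD, NR1H3 and NR1H2 held no such match, and ABCG1 and FASN are named only. Only 1 window was searched per gene, for SREBF1 that at the upstream end of the gene (chr17:17836937-17837236). Other starts of a gene were not searched.

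Library totals were between 17798492 and 31134188 expected counts, and the lowest count of any of the 9 genes in any library was 21, for ABCA1 in a library of the high dose of Astragali Radix. Of 11 colon epithelium markers, 10 were at or above 1 CPM, the count of a gene scaled by the total of its library. The 3 libraries of the high dose of Astragali Radix stood apart from all others. Their TMM scaling factors were 0.898, 0.837 and 0.836 (0.972 to 1.04 elsewhere), and they differed from each other by a chi-square per gene of 91.2 to 223 (1.92 to 13.7 between replicates of other groups). Mitochondrial transcripts took 1.99%, 6.72% and 7.82% of their counts, against 6.91% to 10.01% in the other extract and formula libraries and 9.41% to 12.3% in the vehicle, so the last of these lay within the range of other extracts. The summed level of 5 macrophage markers was 27.4 to 57.3 CPM in them and 7.42 to 12.8 CPM elsewhere, and that of 4 fibroblast markers, 2 of which were at 0, was 3.57 to 7.42 against 0.873 to 2.01 CPM. Over all 60 libraries the macrophage counts were mostly of CD68 (11330) and CD14 (5305), with 127 for CSF1R, 32 for PTPRC and 4 for CD163. Those of the fibroblast markers were mostly of COL1A1 (2224), with 61 for PDGFRB, 19 for DCN and 3 for COL1A2. At the high dose of Astragali Radix 2 of 3 tested macrophage markers rose over the low dose. Endothelial markers (3) summed to 0.781 to 3.09 CPM there and 1.22 to 2.37 CPM elsewhere, and hepatocyte markers (3) to 0.169 to 0.878 and 0.103 to 0.767 CPM. Colon epithelium markers summed to 14420 to 21140 CPM there and 10220 to 14130 CPM elsewhere. The part of these shifts in the results for that group was not tested. The other groups were therefore fitted without those 3 libraries, and each comparison that uses them was fitted on its own groups.

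ABCG1, which moves cholesterol from cells to lipoproteins, lies on the plus strand of chromosome 21 (chr21:42199689-42297244, GENCODE v29, GRCh38). Its level in the vehicle was 3.46, 3.40 and 2.94 CPM. At the high dose of Rehmanniae Radix Preparata, the prepared root of Rehmannia, it was 12.3, 13.4 and 12.9 CPM, at the medium dose 5.33, 5.20 and 5.82 CPM, and at the low dose 4.82, 3.92 and 4.31 CPM. All 3 high-dose libraries were above every other of the 60 libraries, and the medium-dose libraries also stood above those of the low dose. Of all genes, 4.26% had every medium-dose library above every low-dose one and 9.2% below. The high-dose level was 2.99 times that at the low dose, a log2 difference of 1.58 ± 0.09 (SE), and differed from the vehicle by 1.94 ± 0.10. Between the medium and low doses the log2 difference was 0.34 ± 0.10.

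ABCA1, which exports cholesterol and phospholipid to apolipoprotein A-I, lies on the minus strand of chromosome 9 (chr9:104781002-104928237), where an antisense gene, AL359182.1, overlaps it. Its level was 9.25, 8.79 and 10.5 CPM at the high dose of Rehmanniae Radix Preparata, 5.22, 6.27 and 6.92 CPM at the medium dose and 6.24, 6.15 and 6.02 CPM at the low dose. In the vehicle it was 4.22, 5.58 and 5.37 CPM. The 3 high-dose libraries were again the highest of the 60, while the medium-dose libraries lay on both sides of the low-dose ones. The log2 difference was 0.65 ± 0.10 between the high and low doses, a ratio of 1.57, and 0.87 ± 0.11 between the high dose and the vehicle.

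MYLIP, an E3 ubiquitin ligase also known as IDOL that marks lipoprotein receptors such as VLDLR and LRP8 for breakdown, lies on the plus strand of chromosome 6 (chr6:16129125-16148248). Its level was 20.8, 21.0 and 22.5 CPM at the high dose of Rehmanniae Radix Preparata, 15.5, 14.3 and 15.5 CPM at the medium dose and 14.2, 14.8 and 14.2 CPM at the low dose, with 13.5, 14.1 and 12.3 CPM in the vehicle. The high-dose libraries were above all of the 60 libraries outside the high dose of Astragali Radix. Between the high and low doses the log2 difference was 0.59 ± 0.08, a ratio of 1.51. Among all genes tested in this comparison, 6.81% had every high-dose library above every low-dose one and 10.8% every one below.

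**Figure D1:**
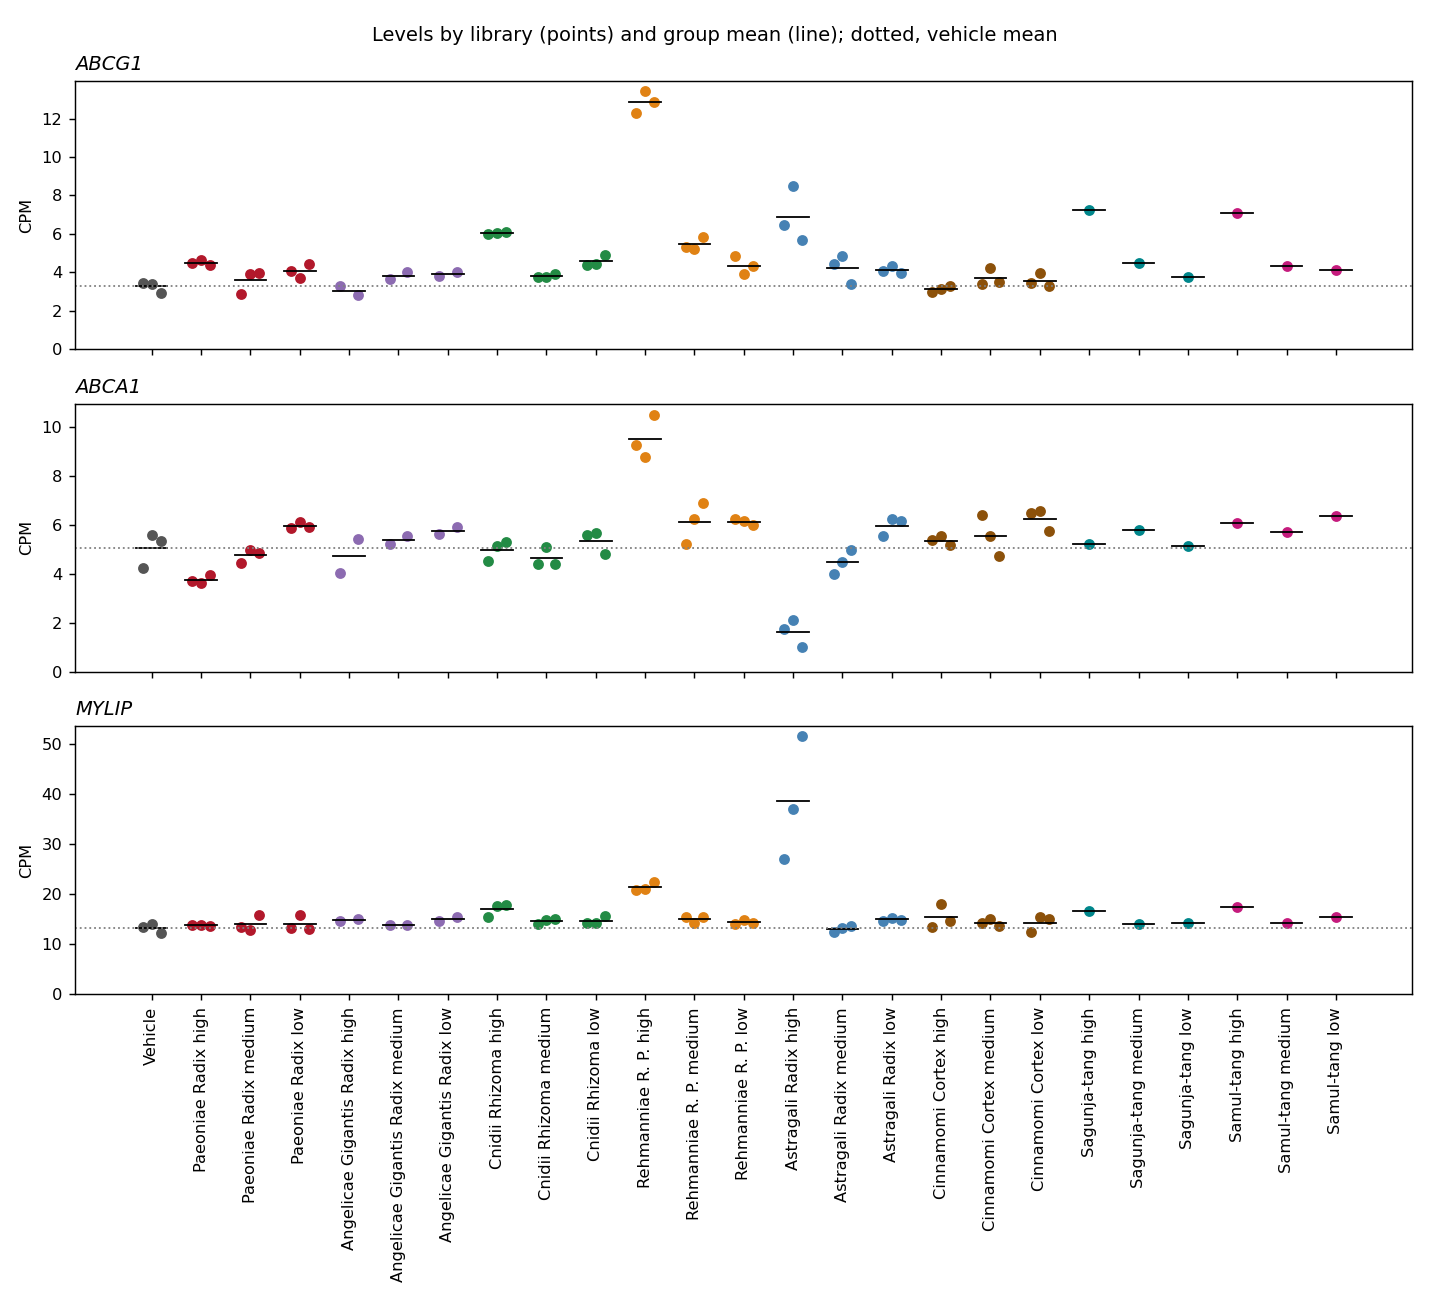
ABCG1, ABCA1 and MYLIP in CPM (vertical axes) in each library (points) of the 25 groups (horizontal axis), with a line at each group's mean and a dotted line at the vehicle mean. The 3 libraries of the high dose of Rehmanniae Radix Preparata are the highest for ABCG1 (12.3 to 13.4 CPM) and ABCA1 (8.79 to 10.5 CPM), while for MYLIP those of the high dose of Astragali Radix are higher still.

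The order of the group means was not the same for the 3 genes, and it runs across code sets, whose part in it was not tested. For ABCG1, the high dose of Rehmanniae Radix Preparata (12.9 ± 0.555 CPM, SD, n = 3) was followed by the high doses of the 2 formulas, at 7.22 CPM for Sagunja-tang and 7.09 CPM for Samul-tang, 1 library each. The high doses of Astragali Radix (6.88 ± 1.47 CPM, SD, n = 3) and Cnidii Rhizoma (6.04 ± 0.0721 CPM, SD, n = 3) came next and overlapped each other. The Astragali Radix libraries lay on both sides of the formulas' values, and with TMM scaling their mean (8.46) ranked above both formulas (7.16 and 7.01). The lowest level, 3.05 ± 0.342 CPM (SD, n = 2), was that of the high dose of Angelicae Gigantis Radix, which overlapped the vehicle (3.27 ± 0.284 CPM, SD, n = 3).

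In both formulas the ABCG1 level followed the dose, at 7.22, 4.49 and 3.73 CPM from the high to the low dose of Sagunja-tang and 7.09, 4.32 and 4.10 CPM for Samul-tang. Against the vehicle mean the log2 differences at the high dose were 1.12 and 1.10. ABCA1 did not show that order, with 5.22, 5.79 and 5.14 CPM in Sagunja-tang and 6.09, 5.73 and 6.36 CPM in Samul-tang from the high to the low dose. MYLIP was highest at the high dose in both, at 16.6 and 17.5 CPM. These are single libraries and carry no error.

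In Cnidii Rhizoma, ABCG1 was higher at the high dose and ABCA1 was not. ABCG1 was 5.97, 6.04 and 6.12 CPM at the high dose, 3.77, 3.77 and 3.90 CPM at the medium dose and 4.40, 4.45 and 4.89 CPM at the low dose. The 3 doses did not overlap, and the medium dose was the lowest of them, so the level did not follow the dose. The log2 difference was 0.45 ± 0.10 between high and low and -0.25 ± 0.11 between medium and low. ABCA1 was 4.51, 5.13 and 5.32 CPM at the high dose and 5.59, 5.68 and 4.81 CPM at the low dose, which overlap, with a log2 difference of -0.05 ± 0.11. MYLIP was 15.4, 17.8 and 17.9 CPM against 14.3, 14.4 and 15.6 CPM, which overlap at 1 library, with a log2 difference of 0.26 ± 0.08. The share of all genes with every high-dose library above every low-dose one was 12.5%, and 24.6% had every one below. Between medium and low these shares were 8.37% and 13.8%.

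In Paeoniae Radix, peony root, ABCA1 was lower with rising dose. It was 3.73, 3.64 and 3.94 CPM at the high dose, 4.46, 4.98 and 4.88 CPM at the medium dose and 5.87, 6.13 and 5.94 CPM at the low dose. No library of one dose overlapped those of another, and the high-dose libraries were also below the 3 of the vehicle. The log2 difference was -0.65 ± 0.12 between high and low and -0.33 ± 0.12 between medium and low. Of all genes, 14% had every high-dose library below every low-dose one and 9.59% above. Between medium and low these shares were 6.35% and 7.44%, and between the high dose and the vehicle 13.5% and 21.4%. ABCG1 (0.17 ± 0.11) and MYLIP (-0.01 on the log2 scale) lay near their low-dose levels.

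At the high dose of Astragali Radix, ABCG1 and MYLIP were high and ABCA1 was at its lowest of the 25 groups. ABCA1 was 1.74, 2.13 and 1.03 CPM, which rests on 31, 47 and 21 counts, against 5.55, 6.24 and 6.15 CPM at the low dose. MYLIP was 27.1, 37.1 and 51.7 CPM against 14.8, 15.3 and 14.9 CPM, and ABCG1 was 6.46, 8.51 and 5.66 CPM against 4.05, 4.32 and 3.96 CPM. None of the 3 genes overlapped between the doses, and the high-dose libraries themselves lay far apart for MYLIP and ABCA1. The log2 differences were -1.52 ± 0.26 for ABCA1, 1.76 ± 0.29 for MYLIP and 1.10 ± 0.20 for ABCG1. In this comparison 17.6% of all genes had every high-dose library above the low dose and 45.3% below, so groups that do not overlap were common. When counts were scaled by library totals and not by TMM, the median log2 change of all genes moved from 0.02 to -0.35 here, and the differences of ABCG1 and MYLIP were then 0.74 and 1.37. At the medium dose ABCA1 was 4.01, 4.48 and 4.99 CPM, below the low dose by a log2 difference of -0.35 ± 0.11.

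Angelicae Gigantis Radix and Cinnamomi Cortex, cinnamon bark, showed small differences in the 3 genes. ABCG1 was 3.30 and 2.81 CPM at the high dose of Angelicae Gigantis Radix against 3.78 and 4.03 CPM at the low dose, with a log2 difference of -0.34 ± 0.14. ABCA1 was 4.02 and 5.43 CPM against 5.64 and 5.91 CPM there, a log2 difference of -0.27 ± 0.14 that was -0.08 without replicate 2 of the high dose and -0.50 without replicate 3. Both genes were lower in each high-dose library, but with 2 libraries a dose 25.4% of all genes had such an order downward and 16.9% upward. In Cinnamomi Cortex the log2 differences were -0.18 ± 0.12 for ABCG1 and -0.21 ± 0.11 for ABCA1, whose high-dose libraries (5.39, 5.53 and 5.18 CPM) were below those of the low dose (6.48, 6.56 and 5.75 CPM). The libraries of MYLIP overlapped between the doses in both extracts, with log2 differences of 0.01 and 0.12. The background shares in Cinnamomi Cortex were 8.06% above and 13.7% below.

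SREBF1 encodes SREBP-1, the factor that drives fatty acid synthesis genes, and its SREBP-1c form is a known LXR target; the gene lies on the minus strand of chromosome 17 (chr17:17810399-17837002). With the high dose of Rehmanniae Radix Preparata it was 176, 188 and 185 CPM, at the medium dose 151, 161 and 151 CPM, at the low dose 140, 150 and 146 CPM and in the vehicle 129, 131 and 130 CPM. Each high-dose library was above every other of the 60 libraries. SREBF1 rose between the low and high doses by 0.35 ± 0.04 on the log2 scale (adjusted p = 1.28e-07, edgeR quasi-likelihood test). RAI1, which overlaps it on the opposite strand, had a log2 change of 0.02 there (adjusted p = 0.932) and fell in Cnidii Rhizoma by 0.19 (adjusted p = 0.00438).

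The responses to Rehmanniae Radix Preparata and Cnidii Rhizoma went opposite ways for this gene. In Cnidii Rhizoma SREBF1 was 115, 118 and 123 CPM at the high dose, 129, 131 and 120 CPM at the medium dose and 141, 144 and 135 CPM at the low dose. It fell between the low and high doses by 0.19 on the log2 scale (adjusted p = 0.000305). The difference between the 2 responses was -0.54 (adjusted p = 6.59e-10), in a comparison in which 12.3% of all genes were called. SREBF1 also fell in Cinnamomi Cortex by 0.22 (adjusted p = 0.000481), from 143, 140 and 145 to 118, 121 and 124 CPM, and rose in Paeoniae Radix by 0.16 (adjusted p = 0.00685). Without the first high-dose library of Paeoniae Radix the adjusted p was 0.0583. In Angelicae Gigantis Radix the log2 change was -0.06 (adjusted p = 0.72). In Astragali Radix, where SREBF1 at the high dose was 101, 74.5 and 54.5 CPM against 137, 145 and 138 CPM, it was -0.52 (adjusted p = 0.0705). It was -0.71 without the first of those libraries (adjusted p = 0.0175), and 0.0484 was the adjusted p without the third. Scaled by library totals, it was -0.87 (adjusted p = 0.0224) against a median of all genes of -0.35.

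SCD encodes the desaturase that makes oleate and FASN the fatty acid synthase, and both are driven by SREBP-1. They lie on chromosomes 10 (chr10:100347124-100364834, plus strand) and 17 (chr17:82078333-82098332, minus strand). FASN was 1213, 1161 and 1114 CPM at the high dose of Rehmanniae Radix Preparata, against 1049, 989 and 1010 CPM at the low dose. All 3 high-dose libraries were higher, and FASN rose by 0.21 ± 0.04 on the log2 scale (adjusted p = 0.00179). SCD was 2055, 1920 and 1971 CPM against 1999, 1849 and 1904 CPM, which overlap, and its log2 change was 0.06 (adjusted p = 0.502).

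In Cnidii Rhizoma both genes fell. FASN was 826, 836 and 848 CPM at the high dose, 996, 948 and 941 CPM at the medium dose and 1096, 1025 and 997 CPM at the low dose, and it fell by 0.27 between low and high (adjusted p = 1.69e-06). SCD was 1630, 1694 and 1647 CPM against 1856, 1842 and 1877 CPM and fell by 0.12 (adjusted p = 0.0101), with an adjusted p of 0.054 without the first high-dose library. The 2 extracts differed in their response by -0.48 for FASN (adjusted p = 2.34e-08) and by -0.18 for SCD (adjusted p = 0.0095).

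SCD moved in the other extracts too. It rose in Paeoniae Radix by 0.32 (adjusted p = 5.66e-09), from 1925, 1883 and 1866 to 2470, 2298 and 2254 CPM. It fell in Cinnamomi Cortex by 0.40 (adjusted p = 2.26e-10), from 1995, 1882 and 1894 to 1485, 1415 and 1423 CPM. In Angelicae Gigantis Radix it fell by 0.26 (adjusted p = 0.000284), from 1885 and 1868 to 1544 and 1552 CPM. The high and low doses did not overlap in any of these. FASN fell in Cinnamomi Cortex by 0.19 (adjusted p = 0.00322), and its log2 changes in Paeoniae Radix and Angelicae Gigantis Radix were 0.11 (adjusted p = 0.0716) and -0.15 (adjusted p = 0.151). With the replicate number as a block, those 2 adjusted p-values were 0.0231 and 0.0475.

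In Astragali Radix, SCD and FASN had their highest means at the medium dose. SCD was 2255, 2166 and 2175 CPM there against 1974, 1878 and 1832 CPM at the low dose, and FASN was 1223, 1194 and 1178 CPM against 1134, 1043 and 1038 CPM. Between low and medium, SCD rose by 0.27 (adjusted p = 1.53e-07) and FASN by 0.22 (adjusted p = 0.000119). At the high dose the libraries were far apart, at 1042, 1444 and 533 CPM for SCD and 1201, 884 and 535 CPM for FASN. The log2 changes from the low dose were -0.57 (adjusted p = 0.17) and 0.05 (adjusted p = 0.894). Without the second high-dose library, SCD had a log2 change of -0.91 (adjusted p = 0.039).

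LPCAT3, an acyltransferase that puts polyunsaturated fatty acids into membrane phospholipids, lies on the minus strand of chromosome 12 (chr12:6976186-7018510). It was highest at the high dose of Cnidii Rhizoma, at 124, 120 and 118 CPM, with 101, 96.7 and 98.3 CPM at the medium dose and 88.0, 88.3 and 85.7 CPM at the low dose. No dose overlapped another, and the low dose was close to the vehicle (85.8, 89.0 and 83.0 CPM). Of all genes, 12.5% had every high-dose library above every low-dose one, and 8.37% every medium-dose library above them. LPCAT3 rose by 0.51 between low and high (adjusted p = 1.37e-13) and by 0.20 ± 0.04 between low and medium (adjusted p = 0.00412).

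In Rehmanniae Radix Preparata, LPCAT3 was 101, 101 and 100.1 CPM at the high dose and 91.2, 82.5 and 83.2 CPM at the low dose. It rose by 0.25 ± 0.04 (adjusted p = 0.000229), by 0.26 less than in Cnidii Rhizoma (adjusted p = 0.00137 for the difference). It rose by 0.19 in Paeoniae Radix (adjusted p = 0.00273). The log2 changes were 0.18 in Angelicae Gigantis Radix (adjusted p = 0.0916), 0.03 in Cinnamomi Cortex (adjusted p = 0.789) and 0.08 in Astragali Radix (adjusted p = 0.854). In the last, the high-dose libraries were at 38.5, 82.8 and 86.7 CPM, the first also being that with the lowest mitochondrial share. LPCAT3 overlaps EMG1 and C1S on the opposite strand, and the strand setting of the counting is not given in the sources used here. EMG1 had a log2 change of 0.06 in Cnidii Rhizoma (adjusted p = 0.534).

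**Figure D2:**
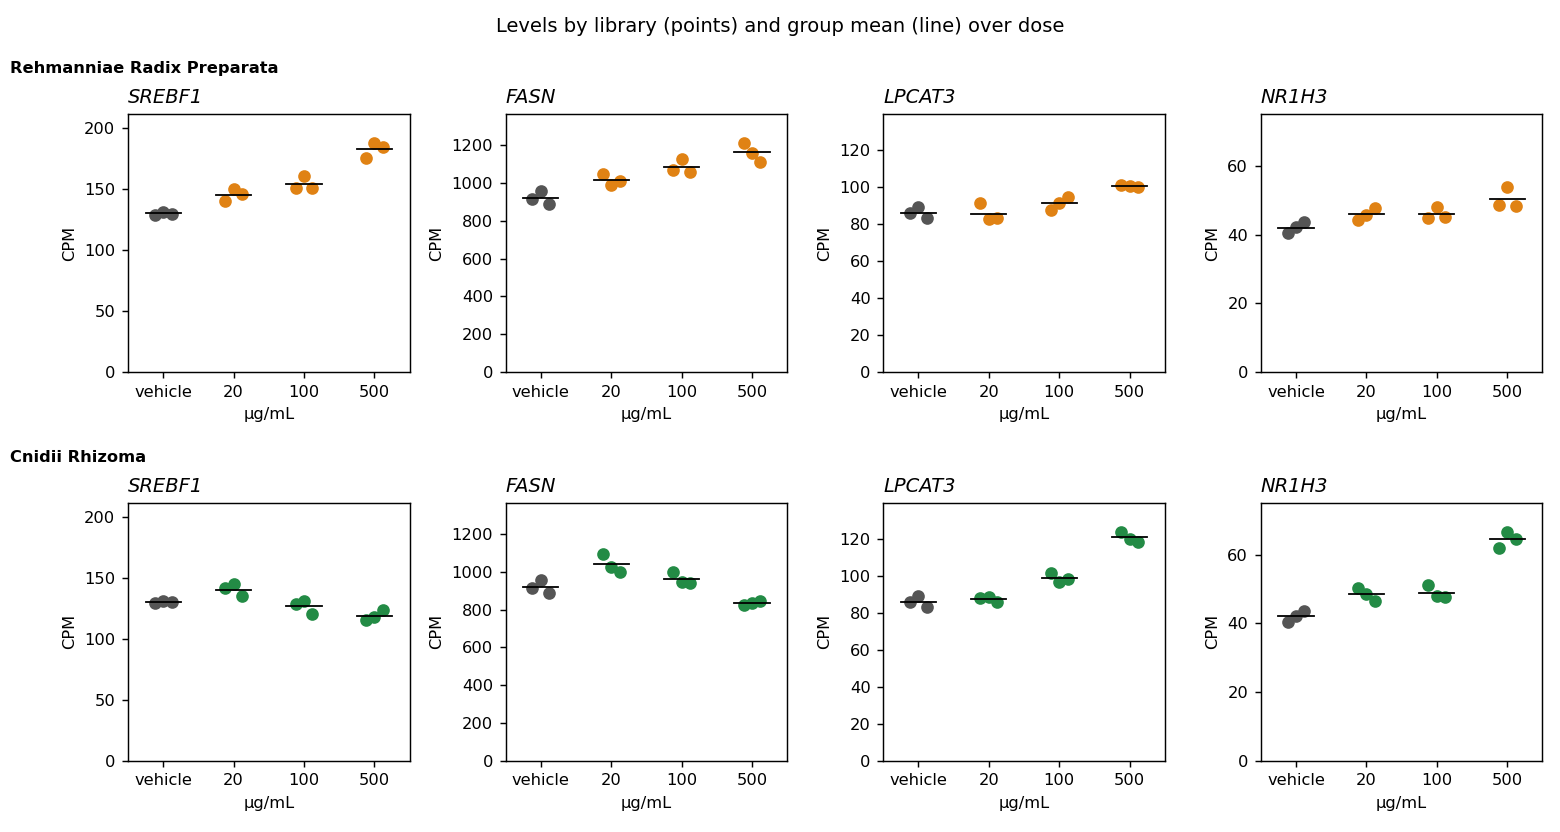
SREBF1, FASN, LPCAT3 and NR1H3 in CPM (vertical axes) in each library (points) of the vehicle and of the 20, 100 and 500 µg/mL doses (horizontal axes) of Rehmanniae Radix Preparata and Cnidii Rhizoma. At 500 µg/mL SREBF1 lies at 176 to 188 CPM in Rehmanniae Radix Preparata and at 115 to 123 CPM in Cnidii Rhizoma, while LPCAT3 is higher than at 20 µg/mL in both.

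NR1H3, which encodes LXRα, lies on the plus strand of chromosome 11 (chr11:47248300-47269032). It was highest at the high dose of Cnidii Rhizoma, at 62.1, 66.8 and 64.6 CPM, against 51.1, 47.9 and 47.6 CPM at the medium dose, 50.4, 48.5 and 46.7 CPM at the low dose and 40.4, 42.3 and 43.6 CPM in the vehicle. All 3 libraries were above every other of the 60 libraries. NR1H3 rose by 0.46 between low and high (adjusted p = 6.08e-11). ACP2, which overlaps it on the opposite strand, rose by 0.17 ± 0.05 (adjusted p = 0.00496).

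In Rehmanniae Radix Preparata NR1H3 was 48.6, 53.9 and 48.4 CPM at the high dose and 44.4, 45.6 and 47.7 CPM at the low dose. The groups did not overlap, but the log2 change of 0.15 ± 0.05 was not called (adjusted p = 0.119). The response in Cnidii Rhizoma was larger by 0.31 (adjusted p = 0.000594). Log2 changes were 0.13 in Paeoniae Radix (adjusted p = 0.0856), 0.16 in Angelicae Gigantis Radix (adjusted p = 0.187) and 0.07 in Cinnamomi Cortex (adjusted p = 0.428). NR1H3 was at its lowest at the high dose of Astragali Radix, at 23.2, 20.2 and 32.1 CPM against 43.3, 46.0 and 47.9 CPM, with a log2 change of -0.47 (adjusted p = 0.153). Without replicate 3 it was -0.76 (adjusted p = 0.00104), and scaled by library totals -0.86 (adjusted p = 0.0138). In the formulas, 1 library each, NR1H3 was 55.1 and 53.3 CPM at the high dose, a log2 difference of 0.39 and 0.34 from the vehicle mean.

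NR1H2, which encodes LXRβ, lies on the plus strand of chromosome 19 (chr19:50329653-50382982) and was nearly flat outside 1 group. It was between 27.0 and 33.4 CPM in all libraries other than those of the high dose of Astragali Radix, where it was 81.0, 73.7 and 67.8 CPM. It rose there by 1.64 ± 0.13 over the low dose (adjusted p = 0.000479), and its response exceeded that in Cinnamomi Cortex by 1.74 (adjusted p = 3.94e-06), a comparison in which 39.5% of all genes were called. NR1H2 overlaps other genes on the opposite strand, NAPSA and NAPSB among them, and NAPSA had a log2 change of -0.45 (adjusted p = 0.404). In the other 5 extracts the log2 changes of NR1H2 were between -0.11 and 0.12 with no call.

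Read across the 6 tested genes, the counts of calls between the high and low doses have to be set against those of all genes. The 6 were chosen with earlier results of these data known, so these counts describe them and are no test of the pathway. In Rehmanniae Radix Preparata 3 of the 6 rose (SREBF1, LPCAT3 and FASN) and none fell, where 1.43% of all genes were called, 0.813% higher and 0.62% lower. In Cnidii Rhizoma 2 rose (LPCAT3 and NR1H3) and 3 fell (SREBF1, SCD and FASN), where 23.7% of all genes were called, 12.1% higher and 11.6% lower. In Paeoniae Radix 3 rose (SREBF1, LPCAT3 and SCD) and none fell, beside 9.51% of all genes, 5.44% higher and 4.06% lower. In Cinnamomi Cortex 3 fell (SREBF1, SCD and FASN), beside 6.08%, 3.27% higher and 2.81% lower. SCD alone fell in Angelicae Gigantis Radix, beside 1.2%, 0.68% higher and 0.524% lower. NR1H2 alone rose in Astragali Radix, beside 40.1%, 21.9% higher and 18.3% lower. The share called among the 6 was therefore below that of all genes in Astragali Radix only.

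**Figure D3:**
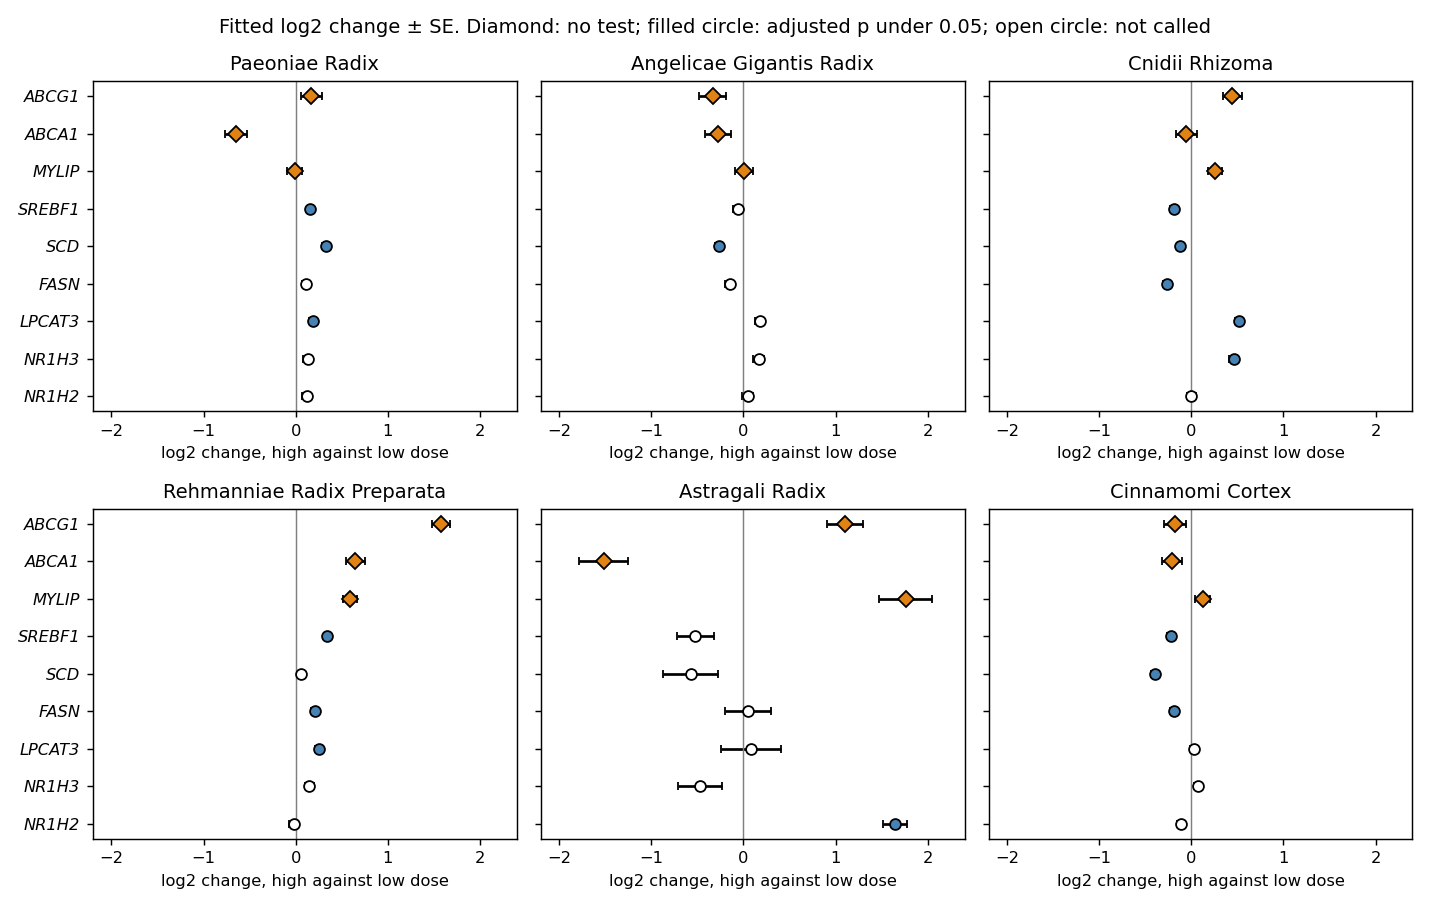
Log2 change between the high and low doses (horizontal axes, with bars of 1 SE) for the 9 genes (vertical axis) in each of the 6 extracts. Diamonds are the 3 genes given with no test, filled circles have an adjusted p under 0.05 and open circles do not; in Rehmanniae Radix Preparata ABCG1 reaches 1.58, ABCA1 0.65 and MYLIP 0.59, while NR1H2 stays near 0 in all extracts but Astragali Radix (1.64).

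These calls depend on which libraries share the estimate of spread. With the high-dose libraries of Astragali Radix in the same fit, the adjusted p in Rehmanniae Radix Preparata was 0.0933 for SREBF1 and 1 for LPCAT3 and FASN, so no call was left there. In Cnidii Rhizoma the calls of LPCAT3 and NR1H3 held, and SREBF1 (0.178), SCD (0.749) and FASN (0.12) lost theirs by adjusted p. The 3 calls each of Paeoniae Radix and Cinnamomi Cortex and that of Angelicae Gigantis Radix were also lost. Of the differences between Cnidii Rhizoma and Rehmanniae Radix Preparata, that of SREBF1 held, and those of LPCAT3 (0.697), SCD (0.89), FASN (0.0692) and NR1H3 (0.175) did not, by adjusted p. In that fit LPCAT3 in Cnidii Rhizoma (0.993) and SCD (0.302) and FASN (0.297) in Astragali Radix were not called at the medium dose, while SREBF1, SCD and NR1H3 were lower at the high dose of Astragali Radix (adjusted p = 6.68e-07, 0.000221 and 3.36e-06).

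At the medium dose the extracts differed in how many genes were called. None of the 6 was called in Paeoniae Radix (0.403% of all genes called), Angelicae Gigantis Radix (0%), Rehmanniae Radix Preparata (0%) or Cinnamomi Cortex (0%). By edgeR at an unadjusted p under 0.05 there were 764 genes in Angelicae Gigantis Radix, 1346 in Rehmanniae Radix Preparata and 1074 in Cinnamomi Cortex, and DESeq2 called 0, 3 and 2. In Cnidii Rhizoma LPCAT3 was called, beside 3.11% of all genes, and in Astragali Radix SCD and FASN, beside 16.5%. SREBF1 was not called in Cnidii Rhizoma, but it was lower by 0.13 with DESeq2 (adjusted p = 0.0381). By edgeR it was also called with library totals (0.0256), 2 groups alone (0.0436), the replicate block (0.0465) and without replicate 3 of the low dose (0.0423). It stayed uncalled with no filter and in 1 fit of all replicated groups.

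In comparisons with the vehicle, whose 3 libraries are shared by all 6, an extract's effect cannot be told apart from a difference between code sets. Of the 6 genes, 5 were higher than the vehicle at the high dose of Rehmanniae Radix Preparata. There 22.6% of all genes were called, beside 1.43% against its low dose. The 5 were SREBF1 (0.45, adjusted p = 3.97e-11), FASN (0.30, adjusted p = 9.74e-07), NR1H3 (0.22, adjusted p = 0.000963), LPCAT3 (0.19, adjusted p = 0.00105) and SCD (0.11, adjusted p = 0.0163). At the high dose of Cnidii Rhizoma, NR1H3 (0.61, adjusted p = 2.24e-14) and LPCAT3 (0.48, adjusted p = 8.62e-13) were higher, and SREBF1 (-0.13), SCD (-0.11) and FASN (-0.14) lower, beside 38.3% of all genes. ABCG1 was above the vehicle there by 0.88 ± 0.11. Each gene called against the low dose in these 2 extracts had the same direction against the vehicle. SCD lost its call in Rehmanniae Radix Preparata when 1 of 4 libraries was left out, with an adjusted p of up to 0.107 (without replicate 1 of the high dose; also without replicate 3 of it or replicate 1 or 3 of the vehicle), and in Cnidii Rhizoma without replicate 2 of the vehicle (adjusted p = 0.0817).

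In Paeoniae Radix 5 of the 6 were called higher than the vehicle, beside 27.1% of all genes. LPCAT3 was not called (log2 change 0.06, adjusted p = 0.315). Its 3 libraries were above those of the vehicle in CPM, as were those of 21.4% of all genes. In Cinnamomi Cortex SREBF1 (-0.15) and SCD (-0.34) were lower and NR1H3 (0.14) higher, beside 26.4%. In Angelicae Gigantis Radix SCD (-0.24) was lower and NR1H3 (0.23) higher, beside 20.5%. The calls of NR1H3 were lost without replicate 1 of the vehicle in Paeoniae Radix (adjusted p = 0.14) and Cinnamomi Cortex (adjusted p = 0.162) and without replicate 2 of the high dose in Angelicae Gigantis Radix (adjusted p = 0.151). In Paeoniae Radix and Cinnamomi Cortex they were also lost without replicate 2 of the vehicle (adjusted p = 0.0617 and 0.0631). The same held without replicate 1 of the high dose of Paeoniae Radix (0.113) and replicate 2 or 3 of Cinnamomi Cortex (0.0701 and 0.142). With 2 groups alone NR1H3 was uncalled in Paeoniae Radix (0.0833), Cinnamomi Cortex (0.0587) and Angelicae Gigantis Radix (0.0559). The call of NR1H2 in Paeoniae Radix was lost without replicate 2 of the high dose (adjusted p = 0.0983) and with 2 groups alone (0.0641). In Astragali Radix NR1H2 was higher by 1.73 (adjusted p = 0.000379), beside 42.3% of all genes.

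With the high-dose libraries of Astragali Radix in the same fit, SREBF1 kept its call against the vehicle in Rehmanniae Radix Preparata, and FASN (0.113), NR1H3 (0.161), LPCAT3 (0.517) and SCD (0.749) lost theirs by adjusted p. In Cnidii Rhizoma NR1H3 and LPCAT3 kept their calls, and SREBF1 (0.281), SCD (0.632) and FASN (0.382) did not. The 5 calls of Paeoniae Radix (adjusted p from 0.0594 to 0.375), the 3 of Cinnamomi Cortex (from 0.11 to 0.378) and both of Angelicae Gigantis Radix (0.44 for SCD and 0.229 for NR1H3) were lost.

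Beyond the 9 genes, others of the pathway were grouped by role. These lists too were chosen with earlier results of these data known, so their counts of calls are a description. Of 18 other LXR targets 11 were tested, and in Rehmanniae Radix Preparata none of those rose between the low and high doses and 1 fell. That was NPC2, a lysosomal cholesterol carrier (-0.20 ± 0.05, adjusted p = 0.0191). APOE, a lipoprotein component and known LXR target, had a log2 change of 0.31 ± 0.46 (adjusted p = 0.866) at a mean of 0.388 CPM. ABCG5 and ABCG8, the intestinal sterol exporters, had 30 and 18 counts over all 60 libraries, and LPL had 0, so they were not tested.

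In Cnidii Rhizoma 3 of the 11 other LXR targets rose and 2 fell, beside 12.1% and 11.6% of all genes. PLTP, a phospholipid transfer protein, rose by 0.71 ± 0.18 (adjusted p = 0.00175) and SCARB1, the HDL receptor, by 0.34 ± 0.04 (adjusted p = 2.49e-10), while NPC1 and NPC2 each fell by 0.20 (adjusted p = 0.00268 and 0.00169). In Paeoniae Radix 2 rose (5.44% of all genes rose), among them NPC1, a lysosomal cholesterol transporter (0.46 ± 0.05, adjusted p = 8.19e-09). In Astragali Radix 4 rose and 1 fell, beside 21.9% and 18.3% of all genes. APOE rose by 3.97 ± 0.67 (adjusted p = 0.00441), from 0.206 to 2.59 CPM, in the libraries in which the sum of macrophage markers, mostly CD68 and CD14, was also higher. Its low-dose level lay near the floor, and APOE passed the filter on low counts through its high-dose level. That call, 1 of the 4, is therefore no independent support, and the size of the change is imprecise. MLXIPL, a glucose-responsive factor, fell by 2.21 (adjusted p = 0.00684). SCARB1 rose in Angelicae Gigantis Radix (0.18 ± 0.04, adjusted p = 0.0192), and NPC2 fell in Cinnamomi Cortex (-0.22 ± 0.05, adjusted p = 0.00387).

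Of 10 tested receptor partners and coregulators, none was called in Rehmanniae Radix Preparata, Angelicae Gigantis Radix or Cinnamomi Cortex, 1 in Paeoniae Radix (9.51% of all genes called), 4 in Cnidii Rhizoma (23.7%) and 2 in Astragali Radix (40.1%, so fewer than the share of all genes). RXRA, the main retinoid X receptor partner of the list, had log2 changes of -0.05 (adjusted p = 0.682) in Rehmanniae Radix Preparata and 0.04 (adjusted p = 0.586) in Cnidii Rhizoma. RXRB had -0.04 (adjusted p = 0.852) and -0.10 (adjusted p = 0.269). TBL1X, a subunit of the NCoR corepressor complex, rose in Cnidii Rhizoma by 0.36 ± 0.05 (adjusted p = 1.74e-08) and in Paeoniae Radix by 0.15 ± 0.05 (adjusted p = 0.0342) and fell in Astragali Radix by 0.56 (adjusted p = 0.0273).

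Among 8 genes that make or remove oxysterols, 4 were tested. None was called in Rehmanniae Radix Preparata. CYP27A1, the sterol 27-hydroxylase, fell in Cnidii Rhizoma by 1.09 (adjusted p = 0.0176) and HSD3B7 by 0.46 (adjusted p = 0.000371). SULT2B1, which sulfates cholesterol and oxysterols, rose in Paeoniae Radix by 0.29 ± 0.06 (adjusted p = 0.000335) and in Astragali Radix by 1.61 ± 0.19 (adjusted p = 0.00133). CH25H, CYP7B1 and CETP, the last a target, had 3, 1 and 22 counts in all libraries together.

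Of 9 tested SREBP-1 fatty acid genes, 2 rose and 1 fell in Rehmanniae Radix Preparata. ME1, malic enzyme, rose by 0.23 ± 0.03 (adjusted p = 7.76e-06) and ACACA, acetyl-CoA carboxylase, by 0.12 ± 0.03 (adjusted p = 0.00709), while ACSS2, acetyl-CoA synthetase, fell by 0.88 (adjusted p = 4.25e-08), from 31.99 to 17.2 CPM. SREBF1, FASN and ACACA thus rose where ACSS2 fell. ACSS2 also fell in Cnidii Rhizoma by 0.58, in Angelicae Gigantis Radix by 0.56 and in Cinnamomi Cortex by 0.84 (adjusted p = 5.38e-06, 0.00415 and 9.59e-08). In Cnidii Rhizoma ME1 rose by 1.01 ± 0.03 (adjusted p = 1.78e-28), from 102 to 198 CPM.

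The 9 SREBP-2 genes of sterol synthesis and uptake control were all tested, and in Rehmanniae Radix Preparata 4 fell and none rose, beside 0.62% of all genes lower and 0.813% higher. Their median log2 change was -0.24, beside a median of all genes of -0.0015. Among them HMGCS1 fell by 0.39 (adjusted p = 0.00117), LSS by 0.35 (adjusted p = 1.28e-10) and IDI1 by 0.30 (adjusted p = 0.00159). LSS, lanosterol synthase, was 95.2 ± 1.32 CPM (SD, n = 3) at the high dose and 123 ± 2.94 CPM at the low dose, and 105.5 CPM in the vehicle. HMGCS1 went from 293 to 220.5 CPM.

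In Cnidii Rhizoma 7 of the 9 fell and none rose (median -0.25), beside 11.6% of all genes lower, among them HMGCS1 by 0.39 (adjusted p = 7.15e-05) and INSIG1, which holds SREBP-2 back in the endoplasmic reticulum, by 0.38 (adjusted p = 4.92e-06). In Cinnamomi Cortex 4 fell (median -0.16), beside 2.81% of all genes, among them LSS by 0.35 (adjusted p = 2.26e-10) and INSIG1 by 0.27 (adjusted p = 0.00387). In Angelicae Gigantis Radix 2 fell, beside 0.524% of all genes, among them LSS by 0.26 (adjusted p = 7.49e-05). Paeoniae Radix went the other way, with 5 higher and none lower (median 0.22), beside 5.44% of all genes higher, led by INSIG1 at 0.37 ± 0.06 (adjusted p = 2.21e-05). In Astragali Radix 7 rose between the low and medium doses (median 0.32), where 16.5% of all genes were called, IDI1 by 0.38 ± 0.06 (adjusted p = 2.83e-06). At its high dose 4 rose and 1 fell, where 40.1% of all genes were called, with HMGCS1 higher by 1.35 ± 0.21 (adjusted p = 0.00323) and IDI1 by 1.06 ± 0.14 (adjusted p = 0.00192).

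Of the lipoprotein receptors that MYLIP acts on, LRP8 rose in Rehmanniae Radix Preparata by 0.27 ± 0.07 (adjusted p = 0.039), with 484 to 557 CPM at the high dose and 390.0 to 471 CPM at the low dose, which do not overlap. VLDLR had a log2 change of -0.10 ± 0.14 there (adjusted p = 0.866). MYLIP acts on the receptor proteins, which were not measured. In Cnidii Rhizoma VLDLR rose by 1.12 ± 0.13 (adjusted p = 4.97e-09), from 3.26 ± 0.301 to 6.87 ± 0.714 CPM (SD, n = 3), and LRP8 by 0.22 ± 0.07 (adjusted p = 0.0168). In Paeoniae Radix VLDLR (0.60 ± 0.14, adjusted p = 0.00365) and LRP8 (0.36 ± 0.07, adjusted p = 0.000474) both rose. In Astragali Radix VLDLR rose by 1.23 ± 0.26 (adjusted p = 0.0102), and LRP8 had a log2 change of -0.55 ± 0.28 (adjusted p = 0.159).

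**Figure D4:**
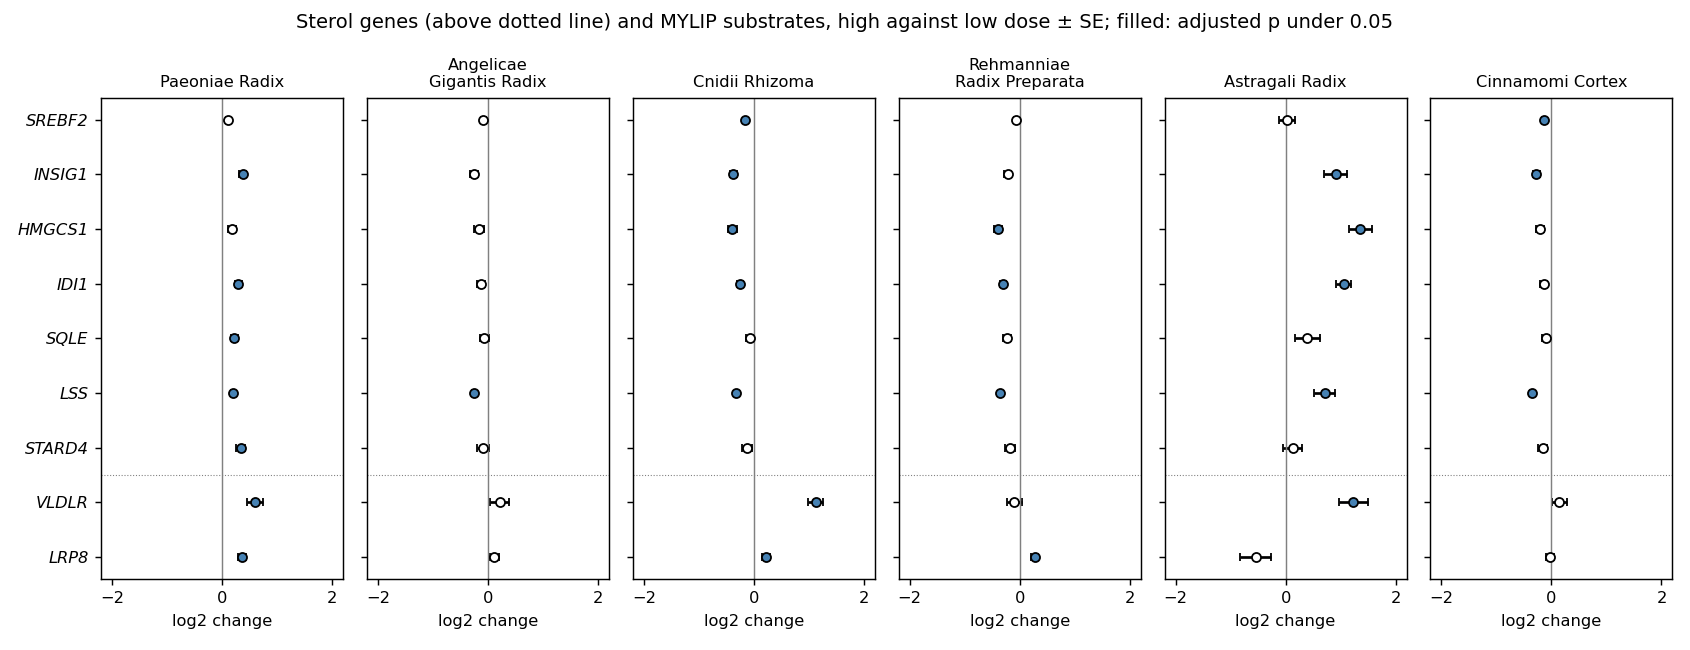
Log2 change between the high and low doses (horizontal axes, with bars of 1 SE) for 7 SREBP-2 genes (above the dotted line) and the MYLIP substrates VLDLR and LRP8 (below it) in the 6 extracts; filled circles have an adjusted p under 0.05. In Rehmanniae Radix Preparata HMGCS1, LSS and IDI1 lie at -0.39 to -0.30 and are called, whereas in Paeoniae Radix INSIG1 is at 0.37 and VLDLR at 0.60.

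Over all 67 genes of the lists, which include the 6 tested genes named first, 52 were tested between the high and low doses. In Rehmanniae Radix Preparata 6 rose and 6 fell, which became 5 and 9 with library totals in place of TMM, where the split of all genes went from 135 higher and 103 lower to 91 and 125. With the high-dose libraries of Astragali Radix in the same fit, none of the 12 was called. In Cnidii Rhizoma 10 rose and 22 fell (2011 and 1922 of all genes, 1384 and 2775 with library totals), and in Paeoniae Radix 18 rose and 1 fell (904 and 675, and 649 and 819). In Cinnamomi Cortex none rose and 12 fell (543 and 466, and 264 and 592), and in Angelicae Gigantis Radix 2 rose and 4 fell (113 and 87, and 72 and 115). In Astragali Radix 15 rose and 6 fell, or 12 and 14 with library totals (3330 and 2783 of all genes, and 2018 and 4700), and the number called was 12 without the second low-dose library, 13 without the third and 34 without the third high-dose library.

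At the medium dose 18 of the 52 rose and 2 fell in Astragali Radix, where the split of all genes was 1202 higher and 1544 lower, or 311 and 2459 with library totals. In Cnidii Rhizoma 4 rose and 2 fell, or 3 and 4 with library totals (270 and 247 of all genes, and 158 and 340). No gene of the lists was called in the other 4 extracts.

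The vehicle, whose sample codes are a set of their own, lay apart from the low doses for some of these genes. LSS was 105.5 CPM in the vehicle and between 123 and 129 CPM at the low doses of the 5 extracts with 3 libraries a dose, and ACSS2 was 24.6 CPM against 29.3 to 31.99 CPM. At the high dose of Rehmanniae Radix Preparata, INSIG1 was lower than in the vehicle (log2 change -0.40 ± 0.06, adjusted p = 4.76e-06), as were HMGCS1 (-0.37 ± 0.08, adjusted p = 0.000353) and LSS (-0.19 ± 0.03, adjusted p = 2.54e-05), the last by less than against the low dose. ACSS2 was lower by 0.55 on that scale (-0.55 ± 0.10, adjusted p = 7.71e-05). In all, 9 genes of the lists were higher and 14 lower there (2042 and 1709 of all genes, or 2801 and 1059 with library totals).

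At the high doses of the other extracts the counts against the vehicle were 11 higher and 23 lower in Cnidii Rhizoma (11 and 22 with library totals, and 3348 and 3008 of all genes became 3372 and 2888). In Paeoniae Radix the counts were 22 and 5 (26 and 1 with library totals, and 2487 and 2012 of all genes became 3009 and 1487). They were 3 and 23 in Cinnamomi Cortex (7 and 17 with library totals, and 2308 and 2069 of all genes became 3058 and 1445) and 6 and 11 in Angelicae Gigantis Radix (1903 and 1497 of all genes, or 2628 and 993). In Astragali Radix 14 were higher and 5 lower, or 11 and 12 with library totals (3449 and 2832 of all genes, or 2224 and 4240). The number called against the vehicle was 16 in Paeoniae Radix without the third vehicle library and 8 in Angelicae Gigantis Radix without the third high-dose library. For Astragali Radix it was 12 without the first vehicle library and 33 without the third high-dose one.

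The genes whose group means of log2 CPM were most like those of the 3 described genes were sought among 10663 genes with a mean of at least 5 CPM, as a description over groups that share libraries' depth and, in part, a vehicle and a dose order. Over the 22 groups other than those of Astragali Radix, MYLIP was the closest to ABCG1 (Pearson r = 0.868), followed by ACSL3 (0.796), an acyl-CoA synthetase, TMC7 (0.744), FTSJ1 (0.724) and TRIM31 (0.682). Over all 25 groups MYLIP, at 0.627, followed AOPEP (0.636) and LPAR2 (0.634). The 3 genes were chosen because they stood out at the high dose of Rehmanniae Radix Preparata, 1 of these groups. Their likeness to each other is therefore in part fixed by that choice. ABCA1 had r = 0.580 with ABCG1 over 22 groups and 0.088 over 25, and 0.620 and -0.545 with MYLIP. For ABCA1 the leading genes were SYTL5, at 0.713 over 22 groups and 0.923 over 25, GRAMD1B, a sterol transfer protein, at 0.707 and 0.901, and RAB33B at 0.678 and 0.905. ABCG1 had a mean under 5 CPM and was therefore not among the genes ranked for MYLIP. Of the ranked genes, the closest to MYLIP over 22 groups was TMC7 (0.843), below the 0.868 of ABCG1. Over 25 groups it was TPM3P9 (0.927).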

How the data were processed

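RNA was sequenced as 100-base paired-end reads from a directional library kit, per the labels' protocols. The deposited table holds the authors' expected counts per Ensembl gene; the submitters' processing notes name FastQC 0.11.9, Trim Galore 0.6.5, STAR 2.7.3a and RSEM 1.3.3, and the build hg38. The annotation and the counting's strand setting are not given in these sources. Of 273 columns, 60 matched samples and 213 were not used. Symbols came from the supplied table for 56558 entries and from GENCODE v29 for 497, and entries without a name held 0.0504% of counts.

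Expected counts were rounded to whole numbers (8.78% of values were not whole), filtered with filterByExpr, scaled by TMM and tested by edgeR 4.0.16 (quasi-likelihood, limma 3.58.1, R 4.3.3), with Benjamini-Hochberg adjustment over all genes tested and calls at an adjusted p under 0.05. One fit held the 51 libraries of 18 replicated groups without the high dose of Astragali Radix (16608 genes); each comparison with that dose was fitted on its own groups. CPM were scaled by library totals, with no TMM factor. The level that a count of 0 allows is 3 counts. Values in the formulas used a prior count of 2. Script steps were tested on simulated data.

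The 9 genes and all lists were chosen with earlier results of these data known. Named genes were the 9, up to 3 called genes per list and comparison by size of change, RXRA, RXRB, ABCG5 and APOE, and the genes of most like pattern; the genes with few counts and the genes on the opposite strand were named after their values were seen. Some genes of the lists count in the totals but are not reported here by name. Lists were other LXR targets, receptor partners and coregulators, oxysterol makers and removers, SREBP-1 and SREBP-2 genes, MYLIP substrates, and markers of colon epithelium, macrophages, fibroblasts, endothelium and hepatocytes. Alternatives were DESeq2 1.42.0, no filter, library totals, 1 fit of all 54 replicated libraries, 2 groups alone, a replicate block, and each library left out. Replicate numbers met the rule for pairing (every pair's correlation of deviations over 0.1) in 4 of 18 comparisons: high against low in Paeoniae Radix, Rehmanniae Radix Preparata and Cinnamomi Cortex, and medium against low in Cinnamomi Cortex. No 2 libraries of the same replicated group agreed within sampling noise (lowest chi-square per gene 1.92). Pairs of libraries from different groups were not compared in this way.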

Additional observations from a re-analysis of the deposited data

Results flagged for a closer look

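These results differed between extracts by a test of the difference between the 2 changes from low to high dose, with adjusted p from edgeR over all genes. Between Cnidii Rhizoma and Rehmanniae Radix Preparata the difference was -0.5366 on the log2 scale for SREBF1 (adjusted p = 6.59e-10) and -0.4761 for FASN (adjusted p = 2.34e-08), both higher at the high dose in Rehmanniae Radix Preparata and lower in Cnidii Rhizoma in 3 of 3 libraries each. It was -0.1822 for SCD (adjusted p = 0.0095), 0.2628 for LPCAT3 (adjusted p = 0.00137) and 0.3117 for NR1H3 (adjusted p = 0.000594), the last 2 with the larger change in Cnidii Rhizoma. Between Astragali Radix and Cinnamomi Cortex the difference was 1.7434 for NR1H2 (adjusted p = 3.94e-06), in which all 3 high-dose libraries of Astragali Radix were above all others.

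ABCG1, ABCA1 and MYLIP were not tested. The same differences were -1.13 ± 0.14, -0.70 ± 0.15 and -0.33 ± 0.11 between Cnidii Rhizoma and Rehmanniae Radix Preparata, and 1.27 ± 0.22, -1.31 ± 0.26 and 1.61 ± 0.31 between Astragali Radix and Cinnamomi Cortex.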

How the results depend on the processing

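Of 2183 values of the 9 genes under other settings, 2071 kept their side of the threshold or, untested, moved by less than 1 SD. Another 60 lost their call, 39 gained one and 13 moved. A change of sign was counted only with a call under either setting or, untested, from a reported change over 2 SE, and 0 were found. Other changes of sign were not counted apart. Of 243 counts of called pathway genes, 218 stayed within 1.5 times the reported one. The others were mostly from 1 fit of all replicated groups, which pools the spread of the high-dose libraries of Astragali Radix. Between high and low doses that fit called 7 in Paeoniae Radix (19 reported), 1 in Angelicae Gigantis Radix (6), 17 in Cnidii Rhizoma (32), 0 in Rehmanniae Radix Preparata (12; in that fit 766 of all genes had an unadjusted p under 0.05, and DESeq2 without those libraries called 269), 41 in Astragali Radix (21) and 2 in Cinnamomi Cortex (12). Between medium and low it called 0 in Cnidii Rhizoma (6) and 9 in Astragali Radix (20). Against the vehicle it called 9 in Paeoniae Radix (27), 2 in Angelicae Gigantis Radix (17), 21 in Cnidii Rhizoma (34), 5 in Rehmanniae Radix Preparata (23), 40 in Astragali Radix (19) and 5 in Cinnamomi Cortex (26), and for the difference of Cnidii Rhizoma from Rehmanniae Radix Preparata 7 (18). With no filter on low counts 10 were called in Angelicae Gigantis Radix between high and low, and with 2 groups alone 17 in Paeoniae Radix and 8 in Angelicae Gigantis Radix against the vehicle. Leaving out 1 library gave 12 to 34 in Astragali Radix between high and low and 12 to 33 against the vehicle, 16 to 26 in Paeoniae Radix and 8 to 17 in Angelicae Gigantis Radix against the vehicle. The replicate block gave 17 pathway genes in Rehmanniae Radix Preparata, 22 in Paeoniae Radix and 17 in Cinnamomi Cortex between high and low; of the 9 genes it added the calls of FASN in Paeoniae Radix and Angelicae Gigantis Radix and of SREBF1 in Cnidii Rhizoma at the medium dose (adjusted p = 0.0465), and it changed no other call. In Angelicae Gigantis Radix and the other comparisons where numbers only name libraries, the block is no evidence of pairing. The cause of these shifts was not tested, other than the pooled spread that the fit itself adds. ABCG1 and ABCA1 rest on few counts in each library, which limits the precision of their changes.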
